A study of Mus musculus with 2 samples.

Results

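The troponin and sarcomeric tropomyosin genes were followed in newborn mouse pancreas that carried a mutant Glis3 gene or its normal form. The set holds 10 genes, Tnnc1, Tnnc2, Tnni1, Tnni2, Tnni3, Tnnt1, Tnnt2, Tnnt3, Tpm1 and Tpm2, out of 16791 genes named on the array. They were read by 16 of its 41174 probes. A probe was included when its RefSeq accession, or the symbol or product name in its description, pointed to one of the 10 genes. In 15 probes this was a RefSeq accession, and the other was a cDNA clone that the files describe as tropomyosin 2. The genes were chosen with the ratios of these arrays in view, so all values below are descriptions and no test was made on them.

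Glis3zf/zf mice carry a mutant allele of Glis3, a zinc finger transcription factor gene needed for the insulin-producing beta cells, in both copies, and the labels also call them Glis3KO. Pancreas RNA of Glis3zf/zf pups was compared with that of wild-type (WT) pups, both at postnatal day 3. Each genotype was represented by 1 pool of RNA from 2 pups, which were not measured apart, and both pools were hybridised together on 2 arrays with the dyes exchanged. The arrays are thus a technical dye swap of 1 sample per genotype, and the spread between animals is not known. On the first array the mutant RNA was in Cy5 and the wild-type RNA in Cy3, and on the second the mutant was in Cy3 and the wild type in Cy5. The labels used here do not say what the zf allele lacks. The single Glis3 probe gave 115 and 128 raw units in the mutant pool against 155 and 115 in the wild-type pool, with log2 ratios of -0.02 and 0.01, and since its place relative to the mutated stretch is not given it does not check the genotype.

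Troponin and tropomyosin form the calcium switch of the thin filament of striated muscle. Troponin C binds calcium, troponin I holds the filament off while calcium is low, and troponin T ties both to tropomyosin, the coiled coil that lies along actin and covers or frees the sites where myosin attaches. Vertebrates have separate genes for troponin I and troponin T of fast skeletal, slow skeletal and cardiac fibres, so these genes tell fibre types apart. Slow skeletal and cardiac fibres share a troponin C gene, Tnnc1, which does not tell those fibres from each other. The pancreas has no striated muscle of its own. The cardiac troponin T gene is also used by skeletal muscle during development, the slow skeletal troponin I gene by the fetal heart, and some products of the tropomyosin genes are made in smooth muscle and in cells that are not muscle.

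Promoters are shown for 3 genes on which the isoform comparison turns. Tnnc2 is the fast gene with the largest ratio of the set, Tnnt1 is the slow gene that was higher, and Tnni3 is the cardiac gene next to Tnnt1 that was not. The sequences are from RefSeq on GRCm38.p6, all on the minus strand, from 250 bases before to 50 bases after the annotated start, at chr2:164779685-164779984 for Tnnc2, chr7:4515926-4516225 for Tnnt1 and chr7:4522479-4522778 for Tnni3. Capitals mark the E-box letters CANNTG, the core to which myogenic basic helix-loop-helix factors bind, read as any bases at N.
Tnnc2: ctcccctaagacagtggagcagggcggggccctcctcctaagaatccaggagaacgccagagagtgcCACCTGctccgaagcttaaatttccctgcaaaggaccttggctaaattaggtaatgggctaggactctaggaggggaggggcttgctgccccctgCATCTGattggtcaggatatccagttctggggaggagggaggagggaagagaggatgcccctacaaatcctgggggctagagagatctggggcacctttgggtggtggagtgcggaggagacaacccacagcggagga
Tnnt1: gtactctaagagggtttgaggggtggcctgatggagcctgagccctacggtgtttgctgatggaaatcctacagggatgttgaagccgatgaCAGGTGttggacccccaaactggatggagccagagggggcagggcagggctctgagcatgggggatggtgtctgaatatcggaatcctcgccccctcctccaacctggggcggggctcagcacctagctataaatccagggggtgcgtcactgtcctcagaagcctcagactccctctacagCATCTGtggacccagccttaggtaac
Tnni3: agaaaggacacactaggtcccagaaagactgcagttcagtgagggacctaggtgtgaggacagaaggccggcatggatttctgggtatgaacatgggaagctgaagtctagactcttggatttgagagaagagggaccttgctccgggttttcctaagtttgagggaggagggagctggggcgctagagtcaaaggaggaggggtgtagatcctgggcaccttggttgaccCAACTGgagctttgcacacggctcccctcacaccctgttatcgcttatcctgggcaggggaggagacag

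Counted from the start, the E-box words begin at -183 and -88 in Tnnc2, and at -158 and 25 in Tnnt1. In Tnni3 the single word begins at -19. The RefSeq promoter set used here matched 8 of the 10 genes. Promoters of the fast genes Tnni2 and Tnnt3 were not used here, so Tnnc2 is the one fast gene of the 8. All 8 genes held an E-box, in each of their 10 annotated promoters, and so did 72.3% of the 32851 promoters of the same length. The M-CAT letters CATTCC, read on both strands, were in 3 of the 10 promoters (of Tnnc1, Tnnt2 and Tpm1) and in 14.7% of all promoters. The MEF2 site, read as CTA, any 4 bases and TAG, was in none of the 10 promoters and in 3.69% of all. The CArG box was in none of the 10 and in 1.63% of all. The E-box, MEF2 and CArG words match both strands at once, the 4 motifs were counted each on its own with any overlap ignored, and a word that is missing from these windows says nothing about the factor.

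The fast isoforms of all 3 troponin subunits were higher in the mutant pool, by 4.01-fold to 12.1-fold. Of the slow isoforms only troponin T reached the size set here for a call. Neither cardiac troponin gene did under the processing used here, although Tnnt2 did under other settings given below. A gene or probe was called higher when its mean ratio over the arrays reached 2-fold and each of the 2 arrays reached 1.5-fold the same way, which is called the rule of size here. By this rule 4 of the 10 genes (40%) were higher and 0 were lower, where 0.230% of the 16507 detected genes were higher and 0.151% lower. Since the genes were picked from this same contrast, nothing is read from that share. Of the 16 probes 7 were called higher and 0 lower, beside 0.142% of all detected probes higher and 0.0952% lower. Among the genes that passed, Tnnt1 had the smallest mean ratio, 1.31 log2, and among those that did not, Tnnc1 had the largest, 0.55. Each ratio is the mutant over the wild type on the log2 scale, with the mean taken over both arrays, and raw values are mean spot signals in scanner units before any correction. The pair of raw values of a pool is Cy5 and then Cy3 for the mutant, and Cy3 and then Cy5 for the wild type, so that the first of each pair is from one array and the second from the other.

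Every member was detected, that is, well above background in at least 1 genotype on both arrays, and 15 of the 16 probes were so in both genotypes on both arrays. No member probe was saturated. The ratios of the arrays lay between 0.01 and 0.17 log2 on each side of their mean, with a median of 0.07. Of the 16 probes 14 were above 0 on both arrays and 2, both of Tnni3, below 0 on both. Both arrays hold the same pools and the share over all probes is not given here, so nothing is read from these signs. Levels are compared for one probe at a time, because probes differ in brightness for reasons other than the amount of RNA.

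**Figure D1:**
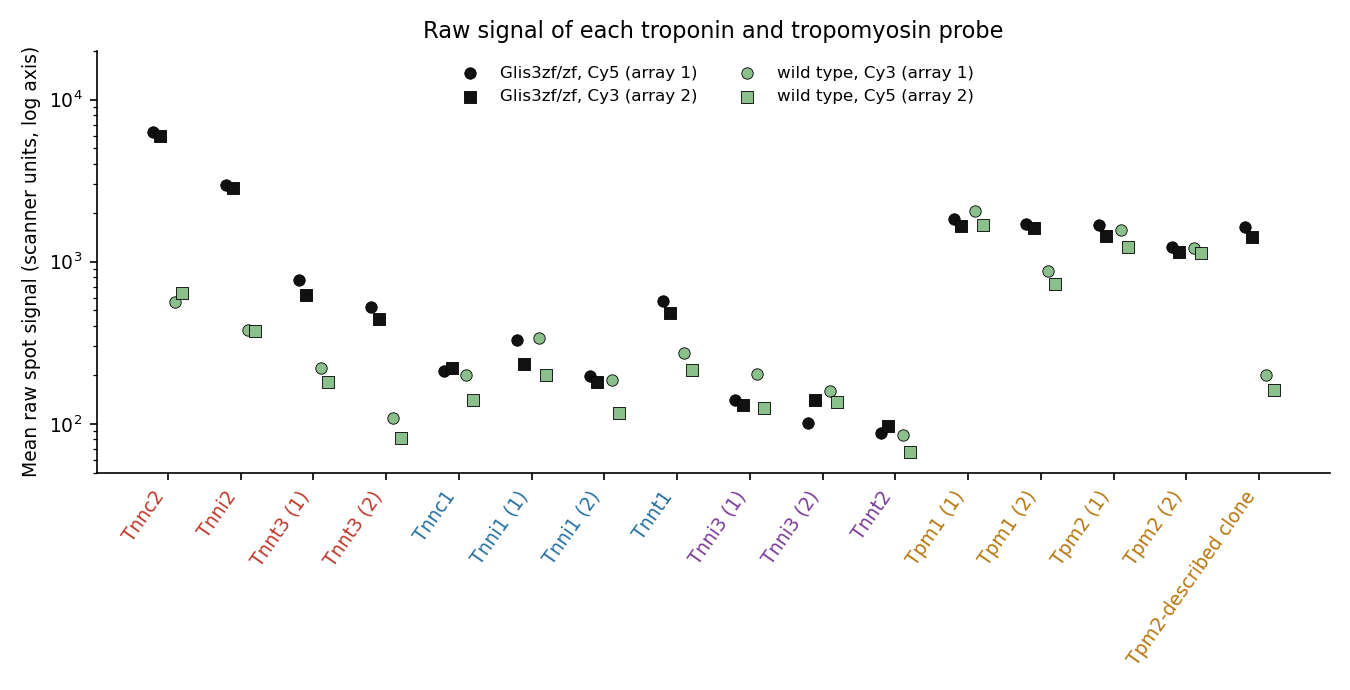
Mean raw spot signal in scanner units (log axis) of each of the 16 probes, with Glis3zf/zf in black and wild type in green, circles for the first array and squares for the second; gene names are red for fast, blue for slow, purple for cardiac troponins and ochre for tropomyosins. The black points stand clear above the green ones for the 4 fast probes, Tnnt1, the second Tpm1 probe and the clone described as tropomyosin 2, and lie near or among them for the others. Heights of different probes are not comparable.

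Tnnc2 encodes the fast skeletal calcium sensor, which in mouse and human is the troponin C of fast fibres. Its probe (NM_009394; chromosome 2, 164233895 to 164233954 in the files) had 6282 and 5950 raw units in the mutant pool, against 565 and 638 in the wild-type pool. Both mutant signals were far above both wild-type signals, whichever dye they carried. The log2 ratio was 3.77 on the first array and 3.42 on the dye-swapped one, a mean of 3.60 or 12.1-fold. It ranked in place 3 of 16507 genes from the highest ratio down. No source used here gives the genome build of the probe coordinates, and they are not set against the GRCm38.p6 positions above.

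Tnnc1 encodes the troponin C that slow skeletal and cardiac fibres share. Its probe (NM_009393), on chromosome 14 from 29342013 to 29342429, had 213 and 222 raw units in the mutant pool, against 199 and 140 in the wild-type pool. The genotypes did not overlap, but the lower mutant signal lay close to the higher wild-type one. The ratios were 0.47 and 0.62, a mean of 0.55 or 1.46-fold, which did not pass the rule. Within troponin C the log2 ratio of Tnnc2 was thus greater than that of Tnnc1 by 3.29 on the first array and by 2.80 on the second.

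Among the inhibitory subunits, Tnni2 encodes the fast skeletal troponin I. Its probe (NM_009405; chromosome 7, 136857356 to 136857415) had 2982 and 2848 raw units in the mutant pool, against 378 and 376 in the wild-type pool. Signals of the same genotype in different dyes were close to each other, and the genotypes were far apart. The ratios were 3.30 and 3.08, a mean of 3.19 or 9.14-fold, in place 7 of 16507.

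Tnni1 encodes the slow skeletal troponin I and was read by 2 probes (NM_021467) on chromosome 1. The brighter, from 135654445 to 135655527, had 328 and 234 raw units in the mutant pool, against 337 and 199 in the wild-type pool. The dimmer, from 135655626 to 135656501, had 198 and 182 units in the mutant pool, against 185 and 117 in the wild-type pool. The raw signals of the genotypes overlapped on both probes, although the mutant was above 0 in every corrected ratio. These were 0.27 and 0.24 on the brighter probe and 0.46 and 0.57 on the dimmer, and neither passed the rule.

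Tnni3 encodes the cardiac troponin I, which heart muscle uses after birth. Its probes (NM_009406) lie side by side on chromosome 7, from 3750532 to 3750591 and from 3750595 to 3750654. The first had 141 and 130 raw units in the mutant pool, against 204 and 125 in the wild-type pool, and the second had 101 and 141 units in the mutant pool, against 160 and 137 in the wild-type pool. Mutant and wild-type signals overlapped on each. The ratios were -0.17 and -0.04 on the first probe and -0.28 and -0.06 on the second, the only values of the 16 probes below 0, and far inside the rule. The log2 ratio of Tnni2 was greater than that of Tnni3 by 3.47 and 3.13 on the arrays, and greater than that of Tnni1 by 3.03 and 2.84.

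Of the tropomyosin-binding subunits, Tnnt3 encodes the fast skeletal troponin T, and both of its probes (NM_011620) were higher. The brighter, on chromosome 7 from 136925615 to 136927377, had 770 and 621 raw units in the mutant pool, against 221 and 181 in the wild-type pool. Its ratios were 2.14 and 1.87, a mean of 2.00 or 4.01-fold. The other, from 136925369 to 136925594, had 524 and 445 units in the mutant pool, against 108 and 81.6 in the wild-type pool, with ratios of 2.71 and 2.50 and a mean of 2.61 or 6.1-fold. Genotypes stood apart on both. On the dimmer probe the size depends on the background step, since its ratio was 3.75 with no offset and 3.98 with the scanner software's own ratio.

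Tnnt1 encodes the slow skeletal troponin T and was the slow isoform that passed the rule. Its probe (NM_011618; chromosome 7, 3753671 to 3753730) had 569 and 484 raw units in the mutant pool, against 275 and 214 in the wild-type pool. The mutant was higher in both dyes with no overlap. The ratios were 1.38 and 1.24, a mean of 1.31 or 2.49-fold, in place 29 of 16507. The log2 ratio of Tnnt3 was greater than that of Tnnt1 by 0.76 and 0.62, a smaller gap between fast and slow than in troponin C and troponin I.

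Tnnt2 encodes the cardiac troponin T and was the dimmest member. Its probe (NM_011619; chromosome 1, 135698294 to 135698606) had 88.2 and 97.4 raw units in the mutant pool, against 85.7 and 66.8 in the wild-type pool. The median local background over all gene spots was 46.5 to 50 units per channel. In the wild type it was well above background on only 1 of the 2 arrays, and although the genotypes did not overlap they lay close together. The ratios were 0.48 and 0.34, a mean of 0.41 or 1.33-fold. The call depends on the background step, because the ratio was 1.15 with no offset and 1.44 with the scanner software's ratio, and it passed the rule under both. No direction is drawn for Tnnt2 beyond these values.

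**Figure D2:**
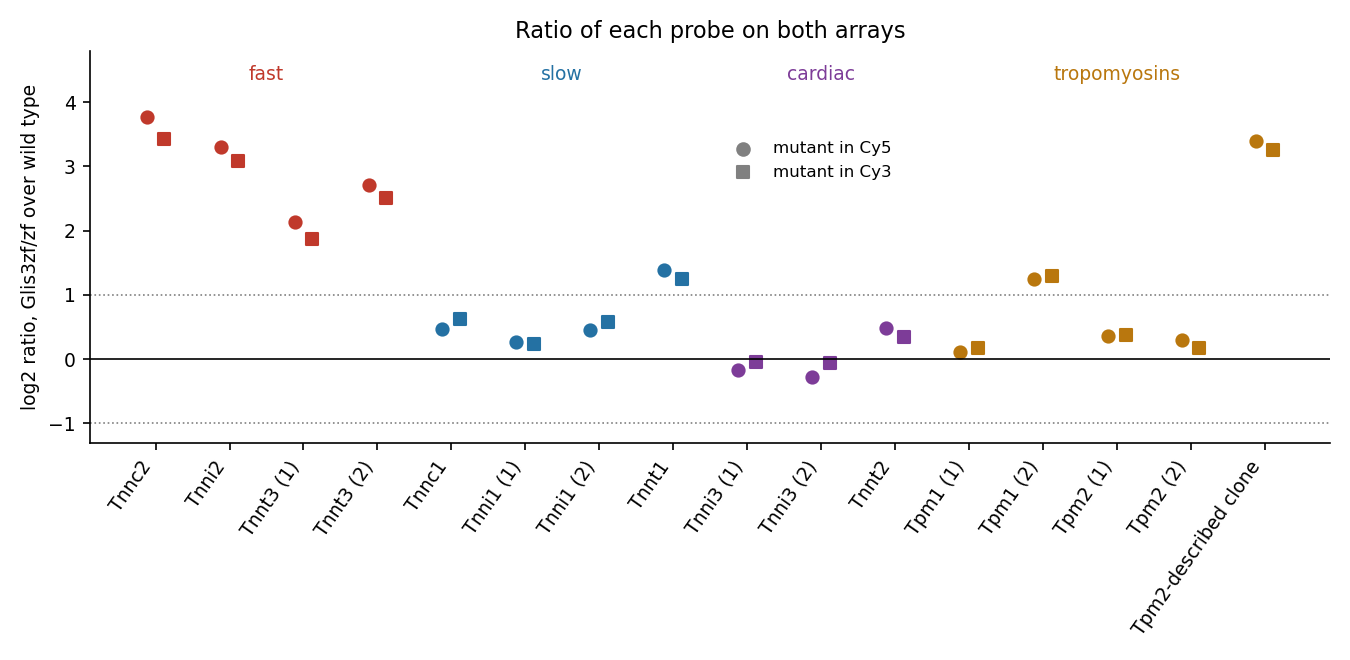
Log2 ratio of Glis3zf/zf over wild type for each of the 16 probes, as circles with the mutant in Cy5 and squares with the mutant in Cy3, coloured by isoform class; dotted lines mark 2-fold in either direction. The 4 fast probes lie between 1.87 and 3.77 on both arrays, Tnnt1 at 1.38 and 1.24 is the only slow probe above the upper line, the cardiac probes lie between -0.28 and 0.48, and the tropomyosin probes spread from 0.11 to 3.39.

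Grouped by fibre type, the median log2 ratio was 3.19 over the 3 fast genes, 0.55 over the 3 slow genes and 0.15 over the 2 cardiac genes, where the median of all detected genes was 0.004. All 3 fast genes and all 4 of their probes passed the rule, against 1 of 3 slow genes and 1 of 4 slow probes, and 0 of 2 cardiac genes and 0 of 3 cardiac probes. Over all detected genes 0.230% were called higher, and over all detected probes 0.142%. The cardiac median lies between Tnni3 with -0.11 and the dim Tnnt2, which passed the rule with no offset and with the scanner software's ratio. With those settings the cardiac median was 0.50 and 0.62. The order fast, slow, cardiac held on each array, with medians of 3.30, 0.47 and 0.15 on the first and of 3.08, 0.62 and 0.15 on the second. Slow and cardiac genes were not apart throughout, since Tnnt2 with 0.41 lay above the slow gene Tnni1 with 0.25. The slow median on each array is the value of Tnnc1, a gene that cardiac fibres use as well. In this tissue, more cells of a fibre type and more RNA per cell cannot be told apart.

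**Figure D3:**
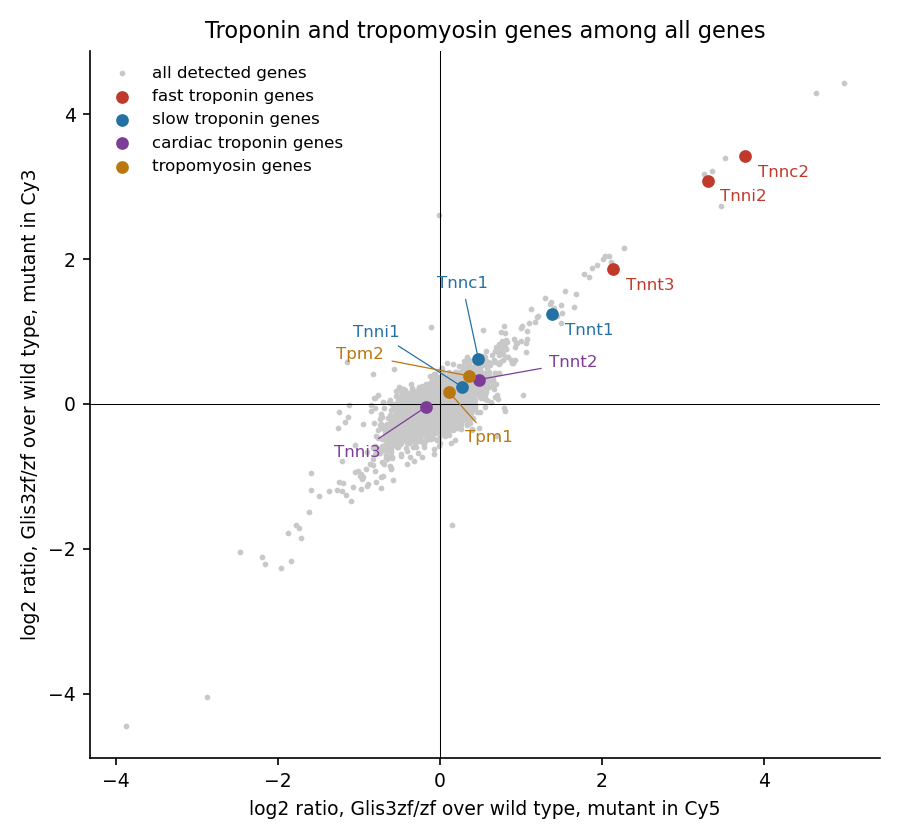
Log2 ratio of Glis3zf/zf over wild type with the mutant in Cy5 (x axis) and in Cy3 (y axis) for all 16507 detected genes in grey and the 10 troponin and tropomyosin genes in colour. Each gene was read by its brightest unsaturated probe, or by its brightest where all were saturated. Tnnc2, Tnni2, Tnnt3 and Tnnt1 lie along the diagonal in the upper right, outside the main cloud, and the other 6 lie within or at its edge.

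The tropomyosin genes gave ratios that differed between probes. Tpm1, which encodes the alpha tropomyosin of fast skeletal and heart muscle and, by alternative splicing, forms used in other cells, was read by 2 probes (NM_024427) on chromosome 9. The first, from 67152022 to 67152081, had 1843 and 1651 raw units in the mutant pool, against 2055 and 1673 in the wild-type pool. Mutant and wild-type signals overlapped, and the ratios were 0.11 and 0.17. The second, which the files place from 67161778 to 67162848, had 1704 and 1608 units in the mutant pool, against 877 and 732 in the wild-type pool. Here the genotypes stood apart, with ratios of 1.24 and 1.29, a mean of 1.27 or 2.41-fold. A placement of 1071 bases is longer than the 60 bases of a probe placed without a gap, so this probe crosses a gap such as an intron. As the brighter probe, the first stands for the gene, so Tpm1 counts as not passing although its second probe did.

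The probe described as tropomyosin 2 is placed, by the files' own coordinates, beside Tpm1 and not beside Tpm2. It carries the clone accession AK077713 and is placed on chromosome 9 from 67157112 to 67158667 on the minus strand, between the Tpm1 probes, whereas both Tpm2 probes are on chromosome 4. The same clone accession is also listed for the second Tpm1 probe. The clone probe had 1631 and 1418 raw units in the mutant pool, against 201 and 161 in the wild-type pool. It had the widest separation of the tropomyosin probes, with ratios of 3.39 and 3.26, a mean of 3.33 or 10.04-fold. Another probe in this stretch, described only as a fragment similar to human tropomyosin (TC1497602, from 67153020 to 67153079) and not counted among the 16, had 89.4 and 95.3 units in the mutant pool, against 118 and 80.5 in the wild-type pool. Its ratios were -0.03 and 0.05. This fragment probe was dim, not far above the 95th percentile of the negative controls, which was 60.8 to 76.2 units per channel. The background step shrinks ratios of dim probes, so its ratio is less certain in size than those of the 3 bright probes beside it.

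These 4 probes on one strand, with midpoints 0.03, 1.03, 5.87 and 10.29 kb from the lowest base of the first, thus had mean ratios of 0.14, 0.01, 3.33 and 1.27. Which exons or transcript forms of Tpm1 each probe reads was not tested, since no annotation of the files' build was used here. The clone entered neither the gene value of Tpm1 nor that of Tpm2.

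**Figure D4:**
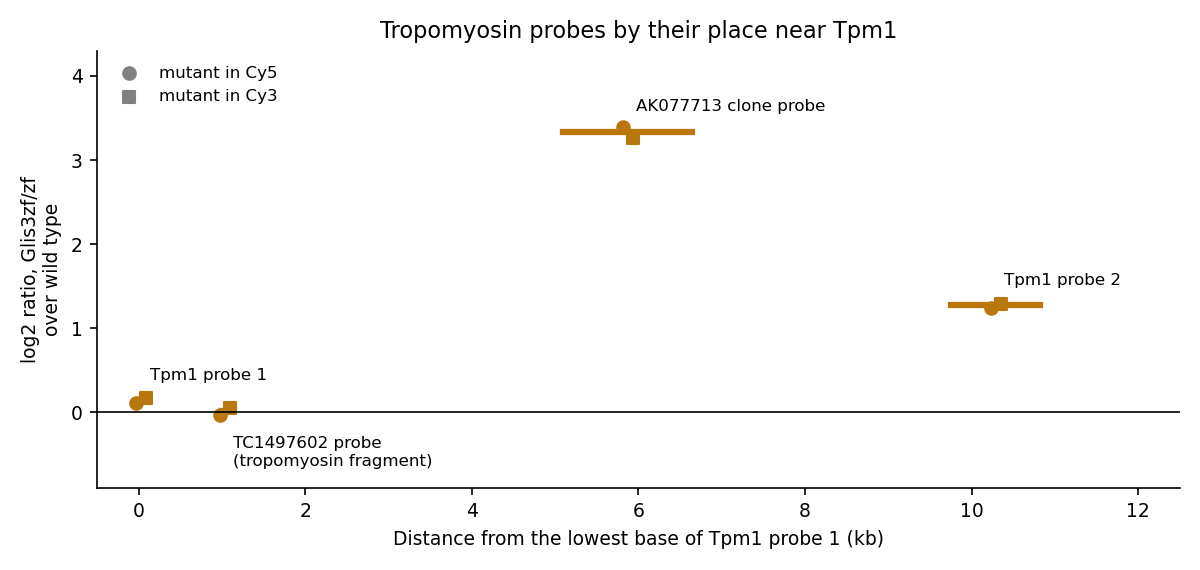
Log2 ratio of Glis3zf/zf over wild type for 4 tropomyosin probes against their distance in kb from the lowest base of the first Tpm1 probe, by the files' coordinates; circles are the array with the mutant in Cy5, squares the array with the mutant in Cy3, and bars the stretch over which a probe is placed, at its mean ratio. The 2 probes at the low end lie at 0.14 and 0.01, the clone AK077713 at 3.33 and the second Tpm1 probe at 1.27.

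Tpm2 encodes the beta tropomyosin of skeletal muscle, with other forms in smooth muscle, and its own probes (NM_009416) did not pass the rule. The brighter, on chromosome 4 from 43435201 to 43435351, had 1673 and 1441 raw units in the mutant pool, against 1569 and 1240 in the wild-type pool, and the other, from 43434327 to 43434386, had 1225 and 1147 units in the mutant pool, against 1209 and 1136 in the wild-type pool. The genotypes overlapped on both. The ratios were 0.36 and 0.38 on the first probe and 0.29 and 0.17 on the second. The median over Tpm1 and Tpm2 read by their brightest probes was 0.26.

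In the mouse genome the troponin I and troponin T genes of the set lie in 3 pairs, of which 1 holds the fast genes and the others each join a slow and a cardiac gene. On GRCm38.p6 the fast genes Tnni2 and Tnnt3 lie on chromosome 7 with 54.4 kb between them and had ratios of 3.19 and 2.00, while Lsp1, the one protein-coding gene between them, had 0.43. The pair of slow Tnni1 and cardiac Tnnt2 on chromosome 1, with 25.3 kb and the gene Lad1 between, had 0.25 and 0.41, and Lad1 had 0.09. Cardiac Tnni3 and slow Tnnt1 on chromosome 7 are only 2.33 kb apart with no protein-coding gene between. They had -0.11 and 1.31, so the closest pair held the member with the lowest ratio and one that passed the rule.

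Beyond troponin and tropomyosin, 15 of 20 listed genes of the thin filament, Z-disc and related sarcomere parts were measured, of which 2 were higher and 0 lower, with a median ratio of 0.18. Acta1, the skeletal muscle actin along which tropomyosin lies, had 3855 and 3461 raw units in the mutant pool, against 495 and 433 in the wild-type pool, a 9.3-fold difference with no overlap. Actn2, a Z-disc alpha-actinin, was 2.61-fold higher. Myoz2 and Myoz1, which encode Z-disc proteins that bind calcineurin, had 0.93 and 0.73 and did not pass. Actc1, the cardiac actin, had 0.06. The tropomyosin genes Tpm3 and Tpm4 had -0.08 and -0.04.

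Of the genes that release the calcium troponin C binds or pump it back, 16 of 20 listed had a ratio, and 1 was higher and 0 lower, with a median of 0.16. The one that passed was Sln, sarcolipin, which inhibits the calcium pump of the sarcoplasmic reticulum, 2.22-fold higher by its brightest probe, but at 0.06 by its other probe. Srl, which encodes sarcalumenin, a calcium-binding protein of the reticulum, had 0.42 and Jsrp1, a junctional reticulum protein, 0.32. Of 10 detected myogenic transcription factors and related genes, 0 were higher and 0 lower, and the median was 0.01. Myod1, the factor that starts skeletal muscle fate, had -0.21 and Myf6 0.13.

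Some markers of skeletal muscle fibres outside the set were higher too, while most of those listed did not pass the rule of size. Of 9 detected fast skeletal fibre genes outside the set, 3 were higher and 0 were lower, with a median of 0.74. Their summed raw signal was 8121 and 7283 in the mutant pool, against 2266 and 1758 in the wild-type pool, of which Myl1 alone gave 4166 and 3677 in the mutant pool and 216 and 212 in the wild-type pool. Myl1, a fast fibre myosin light chain, was 22.0-fold higher, Mylpf, the fast regulatory light chain, 11.0-fold, and Myh4, a fast myosin heavy chain, 4.02-fold by its brightest probe and 0.11 log2 by its other. Myh2, another fast myosin heavy chain gene, had 0.74 by its brightest probe, and 0.22 and 1.68 by its others. Pvalb, the calcium buffer of fast fibres, was not detected.

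Of 8 slow skeletal fibre genes, 2 were higher, Myh7 by 4.1-fold and Myl2 by 3.67-fold, both of which are also genes of heart muscle. Myl3, a slow and cardiac light chain, did not pass with 0.16 log2 by its brightest probe, but had 2.85 by its other. The median was 0.40, and the summed signal was 6874 and 5973 in the mutant pool, against 6701 and 6262 in the wild-type pool. Tpm3 alone gave 3860 and 3085 of those units in the mutant pool, against 4359 and 4209 in the wild-type pool, so its bright probe weighs most in that sum. Of 5 genes of developing fibres, 1 was higher, the perinatal myosin heavy chain gene Myh8, 9.75-fold by its brightest probe but 0.06 log2 by its other. Of 11 heart genes, 0 were higher and 0 lower, with a median of 0.03 and ratios from -0.30 to 0.26. Their summed raw signal was 4467 and 4636 in the mutant pool, against 5426 and 5273 in the wild-type pool. The summed signals of all these lists are not corrected for dye or for probe brightness, so no difference in level is read from them. All 12 smooth muscle genes stayed inside the rule, with a median of 0.01, and of 6 tendon genes Scx alone was higher, by 2.31-fold. These lists share some genes with each other and with those above.

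**Figure D5:**
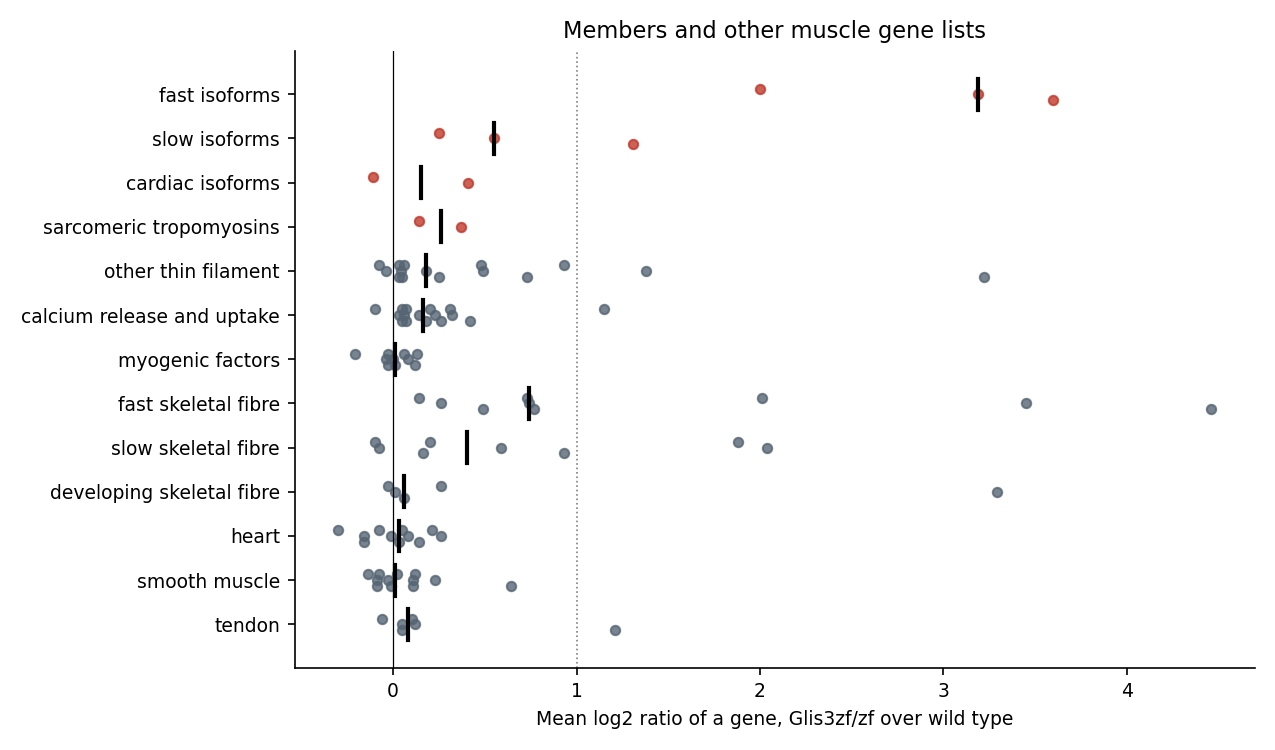
Mean log2 ratio of Glis3zf/zf over wild type for each detected gene (points) and the median (black bar) of the troponin and tropomyosin classes in red and of other muscle lists in grey; the dotted line marks 2-fold. The medians run from 3.19 for the fast troponins and 0.74 for fast fibre genes to 0.03 for heart and 0.01 for smooth muscle and for myogenic factors.

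Checked against its markers, the tissue showed exocrine pancreas in both pools, where 7 of 11 measured acinar genes, those of digestive enzymes and their cofactor among them, were saturated. Of the 4 others Gp2, a zymogen granule protein gene, was 3.81-fold higher, and the median was 0.36. Of 8 islet genes 6 were lower and 0 higher, with a median of -1.86, and none of 6 fat genes passed in either direction. Among the lower islet genes, the probes of Ins1 and Ins2 held saturated signals, so the size of their ratios is not certain. Ins2 had 65293 and 65329 raw units in the wild-type pool. How far skeletal muscle in or beside the dissected pancreas had a part in the troponin values was not tested.

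The 5 genes outside the set with ratios most like those of Tnnc2, by Euclidean distance over the 2 arrays, were Mylpf at a distance of 0.26, Myh8 at 0.46, Acta1 at 0.57, Reg2 at 0.76 and Myl1 at 1.22. Reg2, a gene of the regenerating islet-derived protein family, had ratios of 3.47 and 2.73.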

How the data were processed

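RNA of the pancreas was measured on 2 Agilent two-colour arrays that held the same Glis3zf/zf and wild-type pools with the dyes exchanged. Per the labels, 500 ng of total RNA was labelled and 750 ng of each cRNA hybridised for 17 hours. Per the file headers, the deposited scanner files hold mean and local background intensity per spot on a linear scale, quality flags, and the software's log10 ratio of Cy5 over Cy3 from processed intensities. The deposited series table holds log2 ratios, which equal the software's mutant over wild type within 0.002 for 99.99% and 99.98% of probes and have a median of 0. The labels name Feature Extraction 7.5 and Rosetta Resolver 6.0, whereas the file headers give 8.5.1.1.

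Background was corrected by normexp with an offset of 50, which shrinks the ratios of dim spots, and loess within each array normalised the ratios, with limma 3.58.1 (R 4.3.3, files read with version 1.17.8 of the data.table package), control spots at weight 0, which assumes that most genes do not change. Outlier spots (15 and 53) were left out, saturated ones kept, spots of a probe averaged, and both arrays turned to mutant over wild type and averaged. The code was tested on simulated data. Later steps used Python 3.11.15, numpy 2.4.6, pandas 2.3.3 and matplotlib 3.10.9. Median raw signals were 207 to 265 units against median local backgrounds of 46.5 to 50, with 94% to 96.8% of spots well above background. From the gap between arrays, the SD of a mean gene ratio was 0.079 log2 over the 16444 genes not called. This SD holds only the technical spread between 2 arrays of the same pools. Precision is limited by there being 1 pool per genotype as well as 2 arrays.

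Of 41174 probes, 22072 were named by RefSeq accession, 142 by another accession, 605 by symbol and 486 by an older symbol (RefSeq, GRCm38.p6), leaving 17869 unnamed. A gene was read by its brightest unsaturated probe, or by its brightest where all were saturated. Named were all members and, of the 3 lists of other thin filament, calcium and myogenic genes, those past the rule of size and the 2 others with the largest ratio, and the 5 genes nearest to Tnnc2. Actc1, Tpm3, Tpm4 and the marker genes were singled out after their values were seen. The members and lists were chosen with earlier results of these data known. Alternatives were another offset, centring, ratio source, probe choice and filter, and each array alone.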

Additional observations from a re-analysis of the deposited data

How the results depend on the processing

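No result changed direction under any alternative tried. The count of member genes called was 4 with each array alone, with median centring, with the median over probes and with the filter against the negative controls, and 5 with an offset of 0, the software's ratio and the deposited table, Tnnt2 being the addition. The deposited table holds nearly the same values as the software's ratio, so it is not a separate check. All 3 settings shrink dim spots less by construction. They gave fast medians of 3.40, 3.41 and 3.41, slow medians of 0.76, 0.80 and 0.80, and cardiac medians of 0.50, 0.62 and 0.62. Median centring in place of loess gave 0.19 for the cardiac and 0.19 for the tropomyosin genes. The median over probes gave 0.13 and 0.50 for them, Tpm1 having 0.70 there. Each array alone gave 3.08 to 3.30 for the fast, 0.47 to 0.62 for the slow, 0.15 to 0.15 for the cardiac and 0.24 to 0.27 for the tropomyosin genes. Over all genes, 38 were higher and 25 lower, against 49 and 42 with an offset of 0, and 50 and 44 with the software's ratio and the deposited table. The causes of these shifts were not tested beyond the settings' construction. Mutant and wild type were compared within each array, but each genotype has 1 pool, so no result comes from a test. Dim probes, Tnnt2 and the second of Tnnt3 above all, are the least certain in size.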
